A study of Mus musculus with 24 samples.

Results

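The question here was which hippocampal genes differed after electroconvulsive therapy (ECT) in the same way on 2 diets, one of which carries a compound known to deplete microglia. All 20 libraries of stressed mice among the 24 libraries of the series were used, 10 from ECT-treated and 10 from sham-treated mice. One effect of ECT per gene was estimated across both diets, with the diet as a second additive term. The 4 libraries of nonstressed mice on the control diet did not enter this fit.

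The groups were ECT on the PLX diet (n = 4), sham on the PLX diet (n = 5), ECT on the control diet (n = 6) and sham on the control diet (n = 5). All were hippocampus of male wild-type C57BL/6 mice of 4 to 8 months. The PLX diet carried PLX5562, named in the labels as a kinase inhibitor selective for the CSF1 receptor. Each mouse had its diet for 3 weeks before chronic unpredictable stress began, so the stress and its 5-week schedule are common to ECT and sham libraries. ECT or sham treatment was then given 3 times a week for 2.5 weeks under light isoflurane anaesthesia, with current passed between ear clips. Whether every library had its own mouse is not stated in the labels, so p-values measure the spread between libraries.

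ECT induces a brief generalised seizure and is used against severe depression. In rodents, repeated seizures are known to switch on activity-dependent genes such as Fos and Bdnf within hours and to increase the birth of granule neurons in the dentate gyrus. Microglia are the resident macrophages of the brain and depend on the CSF1 receptor for survival.

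Values are normalized counts, that is reads per gene divided by the size factor of the library, with 14.97 M to 20.12 M reads per library. Differences are ECT minus sham on the log2(normalized count + 1) scale, on which changes of genes with few reads come out too small. A gene was called when its adjusted p (limma with Benjamini-Hochberg adjustment over all tested genes) was below 0.05. All 12 granule cell and 15 of 15 pyramidal cell markers of the hippocampus passed the filter on low values. The dissections differed in neighbouring tissue, and 6 libraries whose thalamus list mean lay more than 0.5 above the average are called thalamus-rich. On the control diet these were libraries 2, 3 and 4 from ECT and library 11 from sham treatment. On the PLX diet they were library 12 from ECT and library 17 from sham treatment, so leaving them out removes more ECT than sham libraries. Leaving them out also set ECT and sham libraries further apart in choroid plexus genes, with a median difference of -1.13 (17 of 17 negative). Values without these 6 libraries are therefore not free of tissue differences. The thalamus and habenula list spanned -0.99 to 1.86 in ECT libraries and -0.67 to 1.74 in sham libraries (log2, mean of the list centred on the 20 libraries). The choroid plexus list spanned -1.63 to 1.98 in ECT libraries and -1.93 to 2.04 in sham libraries. A list of 5 RNA quality genes stayed between -0.19 and 0.19 in ECT libraries and between -0.12 and 0.35 in sham libraries. In library 17, from sham on the PLX diet, Rn45s, which codes for ribosomal RNA, took 2.9% of reads, and in the other 19 libraries at most 1.01%.

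No gene was called for an ECT effect common to both diets. Of 15154 tested genes, 0 passed with limma (0%), and no adjusted p was below 0.9999. At an unadjusted p below 0.05 there were 418 genes (2.76%), of which 172 were higher (1.14%) and 246 lower (1.62%) in ECT libraries. A uniform spread of p-values would give 757.7. The smallest unadjusted p was 0.000157. DESeq2 also called 0 genes with 396 below an unadjusted p of 0.05, edgeR with TMM factors called 0 with 430, and limma-voom called 0 with 427. No gene separated all 10 ECT libraries from all 10 sham libraries. In the same libraries and the same fit, the diet term called 485 genes (3.2%), 399 lower and 86 higher on the PLX diet.

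**Figure D1:**
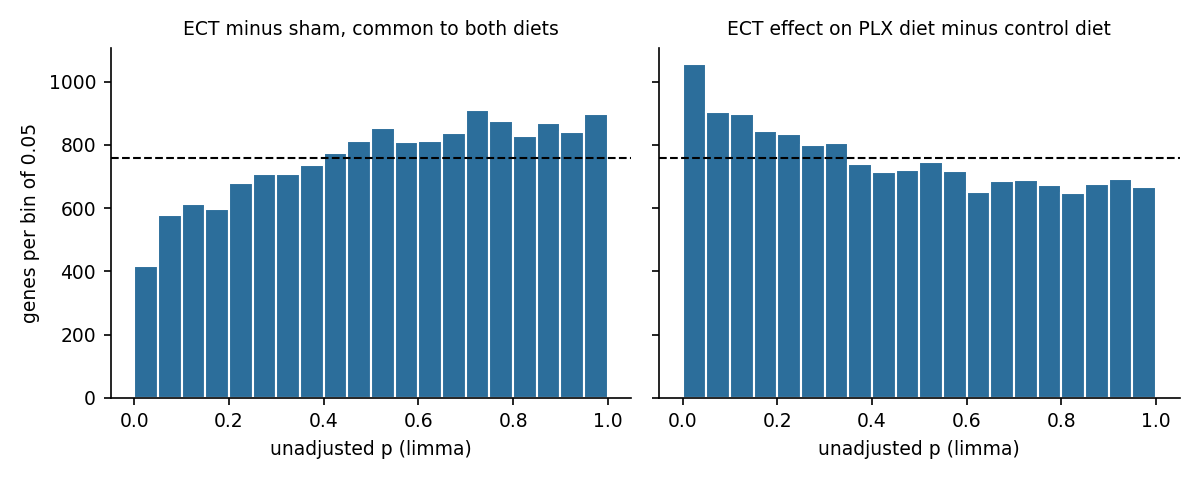
Histograms of unadjusted limma p-values over 15154 genes, in bins of 0.05, for the ECT effect common to both diets (left) and for the ECT effect on the PLX diet minus that on the control diet (right). The dashed line marks an even spread; the first bin holds 418 genes on the left, under the line, and 1054 on the right, above it.

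The width of the intervals says which effects these libraries could show. The median standard error was 0.06 log2 units and the median 95% interval reached 0.126 to either side of the estimate. For 13192 genes (87.1%) the whole interval lay within 0.5 log2 units of 0, and for 14804 genes (97.7%) within 1 unit. Only 8 genes had an estimate larger than 1 in either direction. Differences that fall inside these intervals could not be resolved at this spread.

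An effect common to both diets assumes that the diets do not differ in it, and that assumption was tested. For the ECT effect on the PLX diet minus that on the control diet, limma called 0 of 15154 genes (0%), with a smallest adjusted p of 0.566. At an unadjusted p below 0.05 there were 1054 genes (6.96%). DESeq2 and edgeR with TMM called 0 as well, with 993 and 1071 genes below an unadjusted p of 0.05. Within the diets, limma called 0 genes on the PLX diet (0%) with 384 at an unadjusted p below 0.05 (2.53%), and 0 on the control diet (0%) with 1109 (7.32%). The estimates of the 2 diets, which share no library, had the same sign for 41.3% of genes. Across the 15154 genes, which are not independent replicates, they correlated at -0.04 (Pearson) and -0.17 (Spearman).

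The genes with the smallest p-values are described next because the rule for naming genes selects them, and none of them was called. Ruvbl2 codes for an ATPase of chromatin-remodelling and chaperone complexes (GRCm38 chromosome 7, 45421760 to 45438096, minus strand). It had 483.2, 508.5, 488.1 and 507.8 normalized counts in ECT libraries on the PLX diet, against 471.8, 473.6, 448.7, 454.5 and 473.9 in sham libraries on the PLX diet. Without PLX it had 541.3, 510.4, 547.1, 520.3, 538.7 and 504.7 in ECT libraries, against 490.9, 464.5, 459.9, 472.5 and 499.1 in sham libraries. It was the single gene of 15154 (0.0066%) whose ECT and sham libraries did not overlap on either diet in the same direction. Among so many genes a separation of this kind can arise by chance, and its expected count was not computed. The difference was small, at 0.12 log2 units (SE 0.03, 95% interval 0.06 to 0.18). An exact 2-sided permutation test of this gene, with treatment permuted within each diet, gave p = 1.72e-05, the smallest that its 58212 arrangements can give. Full separation on both diets puts this statistic at its extreme, so the permutation p restates that separation and is no further support. That p is not adjusted for the 15154 genes among which Ruvbl2 was named for its small p. By the same exact permutation test 2810021J22Rik had p = 0.000189 and Lag3 p = 0.00304, both likewise unadjusted and for genes among those of smallest p. The partner of Ruvbl2, Ruvbl1, had a difference of -0.04 (95% interval -0.12 to 0.05). Ruvbl2 overlaps Gys1 on the opposite strand over 3253 bases, and no source used here gives the strand setting of the counting. Gys1 itself had a difference of -0.01 (95% interval -0.11 to 0.10).

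2810021J22Rik, a protein-coding gene of chromosome 11 (58867216 to 58883288, plus strand), had the smallest p of all. It averaged 179 ± 6.83 in ECT and 162 ± 13.4 in sham libraries on the PLX diet (SD, n = 4 and 5). On the control diet it averaged 187 ± 13.2 in ECT and 150 ± 9.17 in sham libraries (SD, n = 6 and 5). The common difference was 0.24 (SE 0.05), and the groups overlapped on the PLX diet and not on the control diet. Pisd-ps1, a transcribed pseudogene whose reads may be shared with its parent gene, had -0.34 (SE 0.08). Pcdha10, one of the protocadherins that share their 3′ exons with the whole cluster, had -0.52 (SE 0.13). Both are uncertain for that reason. Got1l1, a relative of the aspartate aminotransferases, was near the lower limit of detection, with 12.8 ± 1.32 in ECT and 7.10 ± 2.69 in sham libraries on the PLX diet, and 16.3 ± 8.67 in ECT and 6.12 ± 4.96 in sham libraries on the control diet (difference 1.08, SE 0.29).

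**Figure D2:**
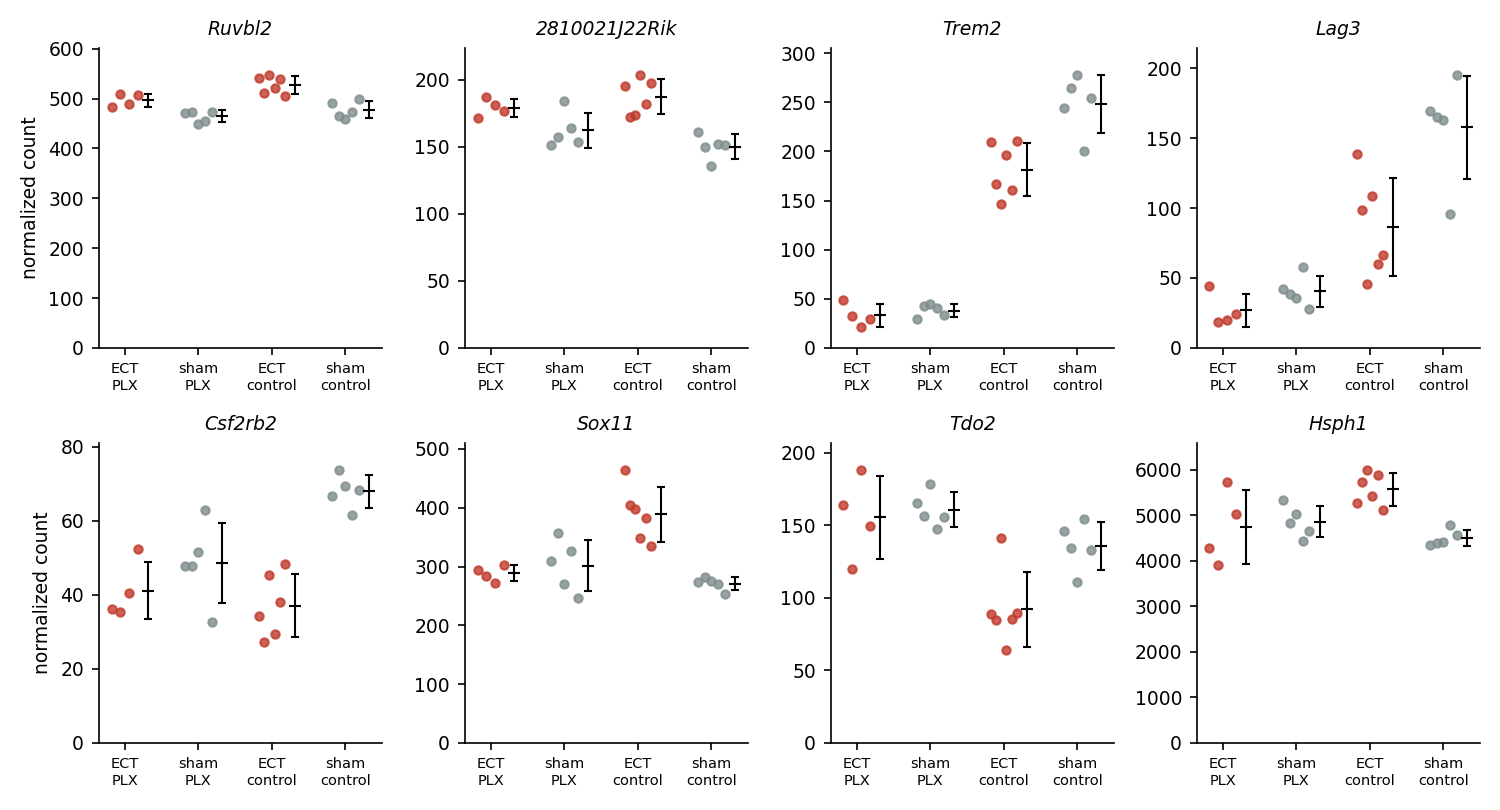
Normalized counts of 8 genes in each library, by treatment and diet, ECT in red and sham in grey; the bar beside each group is the mean and SD. ECT and sham libraries are apart on both diets for Ruvbl2, whereas for Sox11, Hsph1 and Csf2rb2 they are apart on the control diet and overlap on the PLX diet.

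Microglial genes leaned to lower values in ECT libraries on both diets, without any call. Of the 31 tested genes of the microglia core list, 31 had a negative estimate (median -0.23), 9 at an unadjusted p below 0.05. Over all tested genes 50.7% were negative (median -0.00069), and 1.62% were lower in ECT libraries at an unadjusted p below 0.05. On the PLX diet 28 of 31 were negative (median -0.32), on the control diet 30 of 31 (median -0.18), and 27 were negative on both. The list means of ECT and sham libraries overlapped on both diets. On the PLX diet they ran from -1.727 to -0.952 in ECT and from -1.625 to -0.788 in sham libraries. In bulk tissue, fewer cells of a type and less RNA per cell cannot be told apart. This count rests on the diet term: ECT had 4 of 10 libraries on the PLX diet and sham had 5 of 10, and without that term 14 of 31 were negative (median 0.01). Without the 6 thalamus-rich libraries all 31 were negative (median -0.30), and without library 12 all 31 (median -0.28). Of the fits that left out a single library, the one without library 19 had the weakest median (-0.18, all 31 negative).

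Microglial genes varied in how the diets compared. Trem2, a lipid-sensing receptor, averaged 33.0 ± 11.6 in ECT and 38.0 ± 6.44 in sham libraries on the PLX diet, and 182 ± 27.2 in ECT and 248 ± 29.5 in sham libraries on the control diet (common difference -0.36, SE 0.12). Irf8, a transcription factor of macrophages, had -0.81 with PLX and -0.24 without it (common -0.49, SE 0.17). In ECT libraries on the PLX diet, library 12 had 47.69 for Irf8, far above the others, and without that library the estimate on that diet was -1.18 (limma adjusted p = 0.0159), the only call on the PLX diet among the fits that left out 1 library. Mpeg1, a pore-forming protein of macrophages, had -0.38 (SE 0.11) and Adgre1, which codes for the macrophage antigen F4/80, -0.72 (SE 0.19). Adgre1 counts were low on the PLX diet, 7.81 ± 5.92 in ECT and 13.4 ± 3.07 in sham libraries. On the control diet they were 54.7 ± 10.8 in ECT and 82.1 ± 16.5 in sham libraries. Csf1r, the receptor the diet targets, had -0.25 (SE 0.11), but 0.03 without the diet term. P2ry12, a purinergic receptor of resting microglia, had -0.13 (95% interval -0.33 to 0.07), and 0.15 without the diet term.

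Border macrophages line vessels and meninges. Of 10 listed genes 4 passed the filter, of which 3 were negative. Stab1, a scavenger receptor, had -0.36 with PLX and -0.16 without it (common -0.25, SE 0.08). Mrc1, the mannose receptor, had at most 2.794 normalized counts in ECT and 3.092 in sham libraries on the PLX diet, so no fold is given. Its control-diet values were 20.2 ± 13.2 in ECT and 30.6 ± 10.0 in sham libraries. Of 11 meningeal genes, none of them called, 9 had a negative common estimate (median -0.29). Sham library 17 on the PLX diet had the highest meningeal list mean, 1.42, and without it the median was -0.15 in common (9 of 11 negative) and -0.08 on the PLX diet (8 of 11). Among them was Ogn, a small proteoglycan, with -0.58 (SE 0.21). The part of meningeal tissue in the macrophage values was not tested. Gpnmb, a glycoprotein linked to lipid-laden microglia, went the other way: 152 ± 27.5 in ECT and 109 ± 7.92 in sham libraries on the PLX diet, and 117 ± 33.8 in ECT and 98.1 ± 21.0 in sham libraries on the control diet (common difference 0.34, SE 0.12). Its control-diet difference was 0.23, and 0.10 without library 5.

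Receptors of immune signalling included 2 genes of the smallest p-values. Lag3 codes for a T cell inhibitory receptor with MHC class II as a ligand (chromosome 6, 124904361 to 124911705, minus strand). It had 44.58, 18.63, 19.80 and 24.06 normalized counts in ECT libraries on the PLX diet, against 42.21, 38.45, 35.94, 57.71 and 27.52 in sham libraries. The control diet gave 138.8, 98.52, 45.33, 108.3, 59.98 and 66.24 in ECT libraries, against 169.4, 165.2, 163.1, 96.01 and 195.1 in sham libraries. The groups overlapped on each diet, through library 12 on the PLX diet and library 10 on the control diet. Mean Lag3 was lower on the PLX diet than on the control diet, as was Trem2. It was 26.8 against 86.2 in ECT and 40.4 against 157.8 in sham libraries, and the cell type behind these values was not tested. The estimates were -0.62 with PLX and -0.93 without it, and the common difference was -0.79 (SE 0.20, 95% interval -1.21 to -0.37). Across the alternative fits it lay between -0.91 and -0.61, never called. Cd86, a costimulatory ligand of antigen-presenting cells, had -0.76 (SE 0.25) on low counts, 3.63 ± 2.00 in ECT and 9.08 ± 4.07 in sham libraries on the PLX diet. Of the 10 tested checkpoint genes 7 were negative (median -0.05).

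Csf2rb2 codes for a mouse beta subunit of the IL-3 receptor and is a near copy of Csf2rb, so that reads could be split between them. It had 36.29, 35.39, 40.59 and 52.27 normalized counts in ECT libraries on the PLX diet, against 47.84, 47.83, 51.47, 62.87 and 32.61 in sham libraries. Without PLX it had 34.16, 27.25, 45.33, 29.35, 38.17 and 48.37 in ECT libraries, against 66.75, 73.78, 69.45, 61.49 and 68.33 in sham libraries. The separation on the control diet was complete, and on the PLX diet the groups overlapped. The common difference was -0.59 (SE 0.14). For Csf2rb it was -0.26 (SE 0.24).

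**Figure D3:**
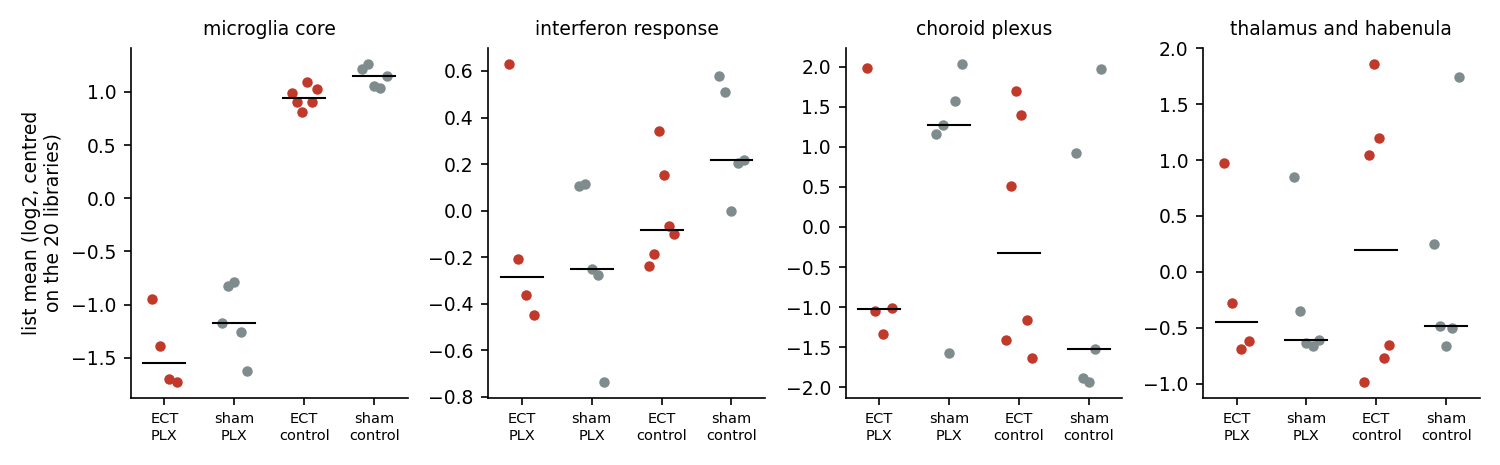
Mean log2 level of 4 gene lists in each library, centred on the 20 libraries, by treatment and diet (ECT red, sham grey, line at the median). Microglial levels run from 0.81 to 1.09 in ECT and 1.04 to 1.27 in sham libraries on the control diet. On the PLX diet they run from -1.727 to -0.952 in ECT and -1.625 to -0.788 in sham libraries. The choroid plexus and thalamus lists vary within every group.

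Interferon response genes had mostly negative estimates on the control diet, and on the PLX diet the sign of their median depended on single libraries. Of 28 tested genes, 25 had a negative common estimate (median -0.11). On the PLX diet 21 of 28 were positive (median 0.06) and on the control diet 28 of 28 were negative (median -0.29), beside 7675 of 15154 tested genes negative there. Library 12 was the highest of the ECT libraries on the PLX diet, with a list mean of 0.63. Without it 22 of 28 were negative on the PLX diet (median -0.15) and 28 of 28 in common (median -0.22). Leaving out library 21, a sham library on the PLX diet, also gave a negative median there (-0.05), as did leaving out the 6 thalamus-rich libraries (-0.08). Bst2, which tethers budding virions, had -0.33 with PLX and -0.30 without it (common -0.32, SE 0.14), and -0.62 on the PLX diet without library 12. Stat2, a transducer of type I interferon signals, had -0.01 with PLX and -0.14 without it (common -0.08, SE 0.04).

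Genes of protein folding had positive common estimates, most of them with a positive estimate on the control diet alone. Of 20 cytosolic and mitochondrial heat shock genes, 20 had a positive common estimate (median 0.07), 5 at an unadjusted p below 0.05. Over all tested genes 49.3% were positive, and 1.14% were higher in ECT libraries at an unadjusted p below 0.05. On the PLX diet 6 of 20 were positive (median -0.03) and on the control diet 20 of 20 (median 0.18). Hsph1, a nucleotide exchange factor of HSP70, averaged 4738 ± 812 in ECT and 4856 ± 343 in sham libraries on the PLX diet. On the control diet it averaged 5570 ± 358 in ECT and 4500 ± 184 in sham libraries, without overlap. Its difference was -0.05 with PLX and 0.31 without it (common 0.15, SE 0.07), with an adjusted interaction p of 0.617 (limma). Bag3, a co-chaperone of selective autophagy, had 0.10 with PLX and 0.23 without it (common 0.17, SE 0.07). Of 20 chaperones of the endoplasmic reticulum, 19 were positive in common (median 0.09), with 0 of 20 positive on the PLX diet (median -0.11) and 19 of 20 on the control diet (median 0.25). Hyou1, one of them, had -0.07 with PLX and 0.26 without it (common 0.12, SE 0.06). Without the 6 thalamus-rich libraries, 18 of 20 heat shock genes (median 0.08) and 18 of 20 chaperones of the endoplasmic reticulum (median 0.09) were positive, and on the PLX diet 15 of 20 heat shock genes (median 0.02).

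Heat shock genes are known targets of the transcription factor HSF1, which binds arrays of inverted GAA units. In RefSeq promoters (GRCm38.p6, 250 bases before the start) the motif GAANNTTC, which reads the same on both strands, was searched. It was present in 7 of 20 promoters of the heat shock list (35%; 15 of its 20 genes were matched by symbol, some with several starts), in 0 of 18 promoters of the endoplasmic reticulum chaperones, and in 6.69% of all 32851 promoters. The 7 genes with a match were Dnaja1, Fkbp4, Hspa1a, Hspa1b, Hspb1, Hspd1 and Hspe1. Whether neighbours such as Hspd1 and Hspe1 share a match was not checked, so the 7 need not be separate sites. These letters were not in the windows of Hsph1 and Bag3. The other order of inverted GAA units, with the reversed unit first, was not searched in any list. The Hsph1 window holds such units in that order close to the start. A window without the searched letters can therefore still hold inverted GAA units, also among the endoplasmic reticulum chaperones. The promoter of Hspe1, the mitochondrial co-chaperonin HSP10, is shown because it holds the motif and Hspe1 is among the 5 heat shock genes of lowest p. It lies at chr1:55087898-55088147 on the plus strand, and capitals mark the match, which begins 84 bases before the start.
Hspe1: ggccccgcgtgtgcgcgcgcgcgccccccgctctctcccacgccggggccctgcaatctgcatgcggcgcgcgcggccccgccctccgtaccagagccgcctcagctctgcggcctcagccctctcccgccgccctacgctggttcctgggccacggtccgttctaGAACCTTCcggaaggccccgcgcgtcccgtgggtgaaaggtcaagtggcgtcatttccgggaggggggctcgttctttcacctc
Hspe1 averaged 758 ± 49.3 in ECT and 745 ± 51.7 in sham libraries on the PLX diet, and 788 ± 31.6 in ECT and 723 ± 27.8 in sham libraries on the control diet (common difference 0.08, SE 0.04). It shares its promoter region with Hspd1, and the 2 genes overlap by 112 bases on opposite strands.

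The cold-inducible RNA-binding proteins are known to respond to temperature in the opposite direction to heat shock proteins. Cirbp had 1036, 960.2, 732.7 and 879.5 normalized counts in ECT libraries on the PLX diet, against 626.6, 779.4, 946.0, 828.6 and 785.7 in sham libraries. Its control-diet values were 644.8, 736.8, 610.4, 513.2, 810.2 and 725.5 in ECT libraries, against 808.2, 958.1, 859.7, 819.9 and 855.6 in sham libraries. The groups overlapped on both diets, on the control diet by 1 ECT library and 1 sham library. The estimates were 0.19 with PLX and -0.37 without it, and the common difference was -0.12 (SE 0.10). The limma fit gave an adjusted interaction p of 0.617. Rbm3, its close relative, had 0.20 with PLX and -0.31 without it (common -0.08, SE 0.10). No source used here gives the body temperature of the mice.

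**Figure D4:**
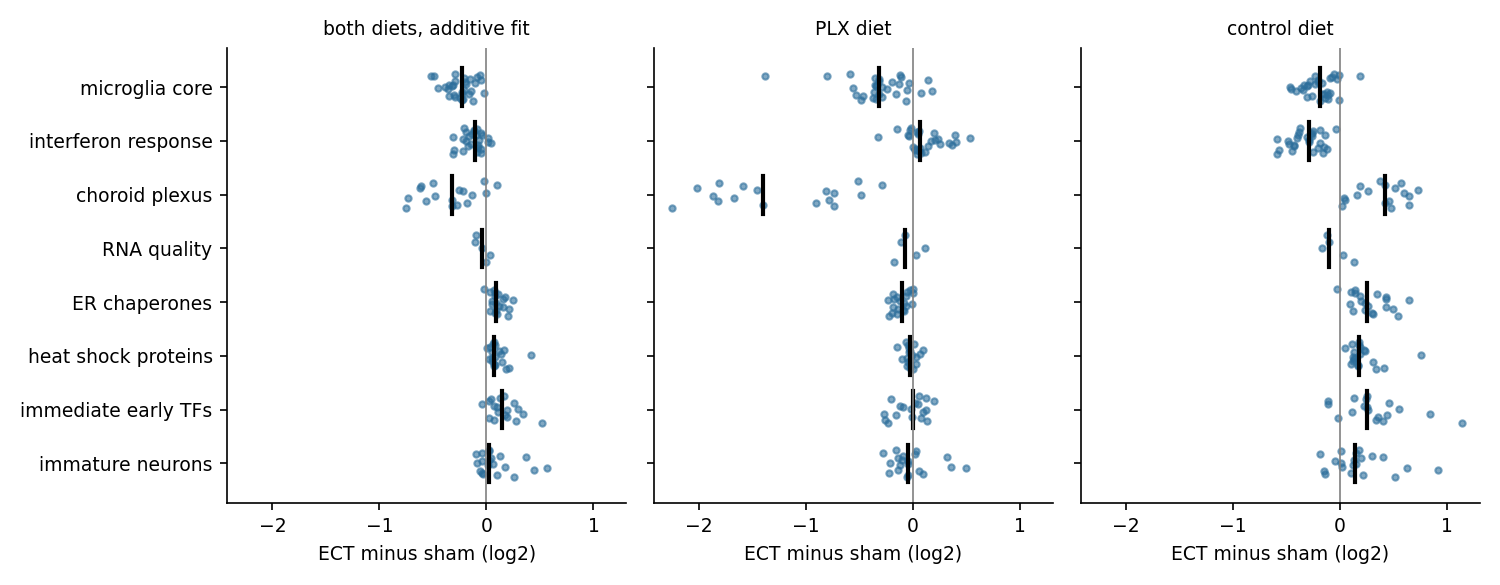
ECT minus sham differences (log2) of the members of 8 gene lists, 1 point a gene, for the additive fit and for each diet; black bars are medians. Microglial members lie mostly left of 0 in each panel, whereas chaperones of the endoplasmic reticulum have medians of -0.11 with PLX and 0.25 without it, and the choroid plexus list -1.40 and 0.42.

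Activity-dependent genes had mostly positive common estimates within wide intervals, and none was called. The time between the last session and tissue collection is not given here, and its part in these values was not tested. Of 18 immediate early transcription factors, 17 had a positive common estimate (median 0.14). On the PLX diet 9 of 18 were positive (median 0.003) and on the control diet 15 of 18 (median 0.26). Without the 6 thalamus-rich libraries the count was 11 of 18 (median 0.06), and without library 4, from ECT on the control diet, 15 of 18 (median 0.09). Fos had 54.95, 110.8, 221.8 and 239.8 normalized counts in ECT libraries on the PLX diet, against 144.5, 264.5, 119.5, 337.0 and 64.20 in sham libraries. The values on the control diet were 184.7, 341.7, 284.6, 577.0, 70.88 and 174.5 in ECT libraries, against 126.3, 49.88, 196.8, 77.67 and 111.9 in sham libraries. The lowest and the highest library of a group differed several-fold, and the groups overlapped on both diets (common difference 0.52, 95% interval -0.36 to 1.41). Arc, a regulator of synaptic strength, had 0.20 (SE 0.25). Egr3 and Ier5, 2 further early genes, had 0.10 (SE 0.05) and 0.16 (SE 0.07).

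Among 17 activity-induced effectors 15 were positive (median 0.07), and 11 without the 6 thalamus-rich libraries. Inhba, a subunit of activin, averaged 34.1 ± 5.75 in ECT and 26.5 ± 7.89 in sham libraries on the PLX diet, and 34.3 ± 18.0 in ECT and 21.4 ± 5.70 in sham libraries on the control diet (common difference 0.49, SE 0.20). Library 5 held the highest Inhba value, 68.70. Nptx2, a pentraxin that clusters AMPA receptors, had 0.22 (SE 0.11). Bdnf, a neurotrophin, had 0.14 (95% interval -0.07 to 0.35), and Npy, a neuropeptide of interneurons, 0.03 (95% interval -0.13 to 0.18).

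Genes of newborn neurons gave no common direction. Of 20 genes of immature neurons, 13 were positive in common (median 0.03), 7 on the PLX diet (median -0.05), and 16 on the control diet (median 0.14). Sox11, a transcription factor of immature neurons (chromosome 12, 27334264 to 27342574, minus strand), is among the fixed genes. It had 294.5, 284.1, 271.3 and 302.9 normalized counts in ECT libraries on the PLX diet, against 309.5, 356.4, 271.0, 325.7 and 245.6 in sham libraries. The control diet gave 464.4, 404.6, 397.4, 348.2, 382.8 and 334.4 in ECT libraries, against 274.2, 282.6, 275.7, 269.7 and 252.5 in sham libraries. Every ECT library on the control diet lay above every sham library, and on the PLX diet the ECT libraries lay inside the sham range. The estimates were -0.05 with PLX and 0.51 without it (common 0.26, SE 0.09), and the interaction was not called (limma adjusted p = 0.617). On the control diet Sox11 missed the threshold with limma (adjusted p = 0.107) and passed with DESeq2 (adjusted p = 0.000454), which called 3 genes there (0.0198%). The others were Csf2rb2 and Slc16a11, a monocarboxylate transporter family member that falls outside the naming rule and was chosen after its values were seen (DESeq2 log2 fold change -0.49, adjusted p = 0.00456).

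Sox4, a relative of Sox11, had -0.05 with PLX and 0.21 without it (common 0.10, SE 0.06). Dcx, a microtubule protein of migrating neurons, averaged 284 ± 56.7 in ECT and 329 ± 52.6 in sham libraries on the PLX diet, and 310 ± 68.1 in ECT and 285 ± 36.4 in sham libraries on the control diet (common difference -0.04, 95% interval -0.28 to 0.19). Among 11 tested genes of neural stem cells 6 were positive (median 0.05), and without library 19 or library 13 the count was 5 (median -0.02 and -0.007). Sox2, a stem cell and glial transcription factor, had 0.14 with PLX and 0.13 without it (common 0.14, SE 0.05), and it lies inside the transcript Sox2ot on the same strand. Nes, an intermediate filament of stem cells, had 0.22 (SE 0.11), with most of the difference on the control diet. It averaged 93.3 ± 14.2 in ECT and 89.95 ± 13.0 in sham libraries on the PLX diet. On the control diet it averaged 108.6 ± 23.3 in ECT and 83.8 ± 11.85 in sham libraries.

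Markers of mature granule cells had mostly negative estimates on the control diet. Of 12 genes 7 were negative in common (median -0.03), 3 on the PLX diet (median 0.08), and 11 on the control diet (median -0.11). Without library 4, from ECT on the control diet, 8 of 12 were negative there (median -0.01) and 4 of 12 in common (median 0.05). The common median was 0.005 without library 7, a sham library on the control diet. Tdo2, which degrades tryptophan and marks mature granule cells in mice, had 163.8, 120.1, 188.1 and 149.4 normalized counts in ECT libraries on the PLX diet, against 165.1, 156.6, 178.7, 147.4 and 155.9 in sham libraries. Without PLX it had 88.61, 84.90, 141.3, 63.77, 85.06 and 89.37 in ECT libraries, against 145.8, 134.0, 110.5, 154.3 and 132.7 in sham libraries. On the control diet 5 of 6 ECT libraries lay below every sham library, with library 3 as the exception. The estimates were -0.06 with PLX and -0.58 without it (common -0.35, SE 0.12). Calb1, a calcium buffer of these neurons, had -0.11 on both diets (common -0.11, SE 0.05). Plk5, a kinase-like protein of neurons, had 0.32 with PLX and -0.56 without it, which left -0.16 in common (SE 0.17). Drd1, the D1 dopamine receptor, had 0.02 with PLX and 0.54 without it (common 0.31, SE 0.12). Striatal markers, whose list also holds Drd1, were positive for 9 of 10 genes in common. The count was 7 of 10 without library 4 (median 0.08) or library 6 (median 0.07), both from ECT on the control diet. The part of striatal tissue in the Drd1 value was not tested.

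Glial genes other than microglia had positive medians in common, whose size for myelin and reactive astrocyte genes moved with single libraries. Gfap, the intermediate filament of astrocytes, had 12360, 10820, 10480 and 9088 normalized counts in ECT libraries on the PLX diet, against 9598, 9035, 7469, 8790 and 8403 in sham libraries. Its control-diet values were 6649, 7841, 6843, 5823, 13360 and 6278 in ECT libraries, against 7389, 6913, 5700, 6382 and 6009 in sham libraries. The groups overlapped on each diet, and the common difference was 0.25 (SE 0.11). Library 5, from ECT on the control diet, held the highest Gfap value, and without it the difference was 0.045 on the control diet, against 0.21 with it, and 0.16 in common. Of 21 reactive astrocyte genes 15 were positive (median 0.08), with 19 on the PLX diet (median 0.22), and 11 on the control diet (median 0.02). Without library 19, from sham on the PLX diet, the astrocyte count was 15 of 21 on the PLX diet (median 0.10) and 13 of 21 in common (median 0.05). Without library 5 it was 6 of 21 on the control diet (median -0.03). Of 15 myelin genes 13 were positive (median 0.08), 15 with PLX and 8 without it. Without library 19 the myelin median was 0.01 both in common (9 of 15 positive) and on the PLX diet (8 of 15). Without library 13, from ECT on the PLX diet, it was 0.01 in common (9 of 15) and 0.005 on the PLX diet (9 of 15). Genes of oligodendrocyte precursors were positive for 12 of 14 (median 0.06) and those of homeostatic astrocytes for 12 of 14 (median 0.03), with at least 10 and 9 positive when any 1 library was left out.

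Stress hormone genes, channels and receptors had medians near 0. Of 20 glucocorticoid receptor targets 10 were positive (median 0.002). Fkbp5, a glucocorticoid-induced co-chaperone, had 0.047 with PLX and 0.055 without it (95% interval of the common difference -0.10 to 0.21), and Nr3c1, the glucocorticoid receptor, -0.02 (95% interval -0.08 to 0.05). Medians were 0.02 over 29 glutamate receptor and scaffold genes, -0.01 over 13 GABA-A receptor genes, -0.01 over 31 potassium and HCN channel genes and -0.002 over 23 sodium and calcium channel genes. None of these genes had an unadjusted p below 0.05 in the common effect. The 18 clock genes had a median of -0.01, with 8 positive.

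**Figure D5:**
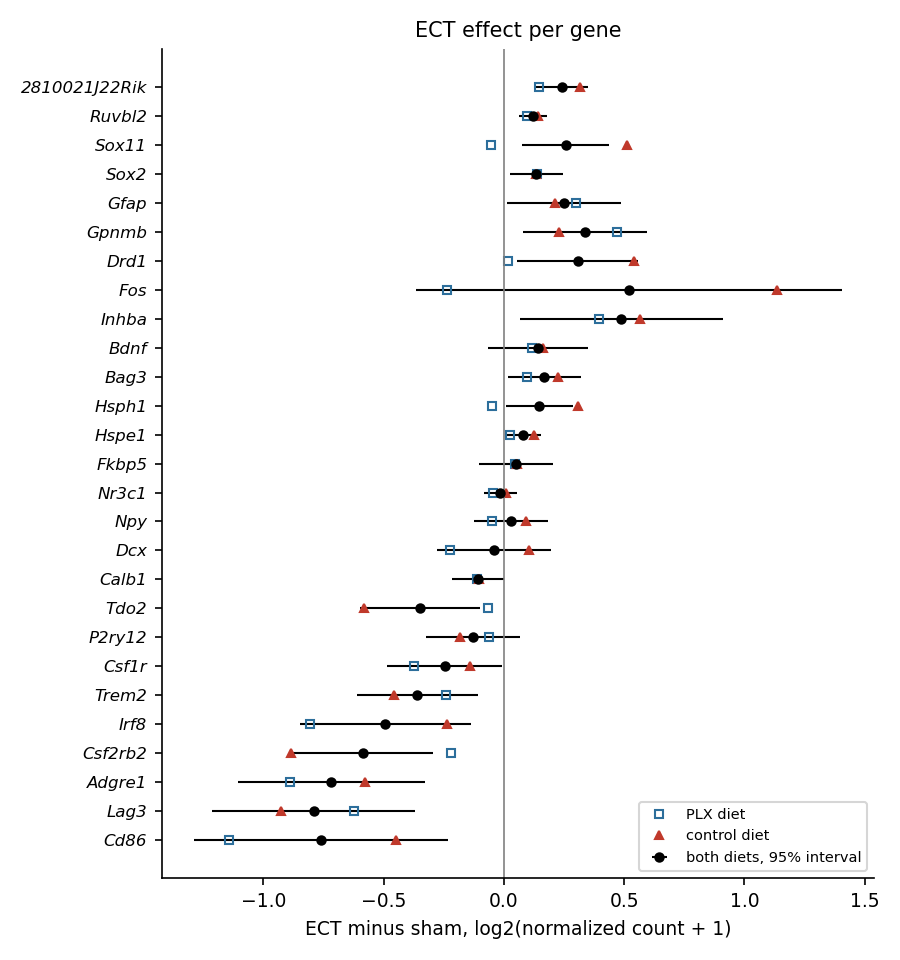
ECT minus sham differences of 27 genes on the log2(normalized count + 1) scale: black points and bars are the effect common to both diets with its 95% interval, blue squares the PLX diet and red triangles the control diet. The diets lie close together for Sox2 and Calb1 and far apart for Sox11, Tdo2 and Fos.

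Transcripts of neighbouring tissue had wide intervals. Ttr, the transthyretin of choroid plexus, had a common difference of -0.75 (95% interval -3.06 to 1.56). Choroid plexus genes were negative for 16 of 17 in common (median -0.32), for 17 of 17 on the PLX diet (median -1.40), and for 0 of 17 on the control diet (median 0.42). The common median was -0.11 without library 11, a sham library on the control diet (10 of 17 negative). On the control diet the median was -0.01 without library 9, a sham library there. Without the 6 thalamus-rich libraries the common median was -1.13 (17 of 17 negative). Tcf7l2, abundant in thalamus, had 0.25 (95% interval -0.94 to 1.44), and -0.22 without the 6 thalamus-rich libraries. With the means of both tissue lists as covariates, limma called 0 genes for the common effect, with 632 at an unadjusted p below 0.05, and the microglia core list had 31 of 31 negative (median -0.28).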

How the data were processed

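Hippocampal RNA of 24 libraries was sequenced with an in-house poly(A) method, per the labels. The deposited table has a signal column for each library which, per the file headers, holds normalized counts, that is reads over a size factor. The submitters' processing notes name DESeq2 1.6.3, HTSeq 0.6.1p1, TopHat2 2.0.10 and cutadapt, and also hg19 and mm10 as builds, with no role stated. Whole reads were recovered for 100% of values (tolerance 0.001 reads), 14.97 M to 20.12 M per library. The 41 pairs of libraries within a group differed beyond sampling noise (chi-square divided by its degrees of freedom, 3.75 to 27.1).

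The main test was limma 3.58.1 (trend and robust) on log2(normalized count + 1) for the 15154 of 23240 genes with at least 10 normalized counts in at least 4 of the libraries, with ECT and diet as additive terms and 2-sided p-values. Effects within each diet and the interaction came from fits to the same 20 libraries. The exact permutation test was planned for called genes. None was called, and it was run for the named genes, with p-values not adjusted for the choice of genes; 3 of these are given. Alternatives used edgeR 4.0.16, DESeq2 1.42.0, limma-voom and sva 3.50.0, on recovered reads where counts are needed. The fits were tested on simulated data. Some titles of a group share a letter of unstated meaning, within which the consensus correlation was 0.204.

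Named genes were those of smallest p, up to 3 members of smallest p per list and a fixed set; a subset is described, and 1 of them is not reported here. The members and gene lists were chosen with earlier results of these data known. Lists are described by counts and medians, without a test of the list. Gene coordinates come from GENCODE (GRCm38), matched by symbol for 48 of 49 genes named, and promoter sequences from RefSeq (GRCm38.p6).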

Additional observations from a re-analysis of the deposited data

Results flagged for a closer look

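In 21 of 232 sets of values (4 groups for each of 49 genes and 9 lists), 1 library stood far from the rest of its group by Dixon's criterion. About 1 of 20 sets meets it when values are independent and normally distributed. The gene values are normalized counts, some of them very uneven within a group, and all sets share the same 20 libraries. The count of 21 can therefore not be set against that rate. Library 12, from ECT on the PLX diet, accounted for 7 of the 21 sets. In that group it was highest for Irf8 (47.69 normalized counts), Mpeg1 (134.8), Plk5 (1188), Ttr (47340) and Tcf7l2 (598.3), lowest for Ier5 (908.3), and highest for the choroid plexus list (1.98 on the centred log2 scale). Without library 12 the smallest adjusted p of the common effect was 0.12 (limma), with 0 genes called.

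In the same group library 14 was highest for Hyou1 (1934 normalized counts) and for the list of endoplasmic reticulum chaperones (0.18), and library 13 was lowest for Bdnf (688.3). In ECT libraries on the control diet, library 3 was highest for Sox4 (380.5) and Tdo2 (141.3), and library 5 for Inhba (68.70) and Gfap (13360). In sham libraries on the PLX diet, library 17 was highest for Tcf7l2 (513.1) and for the thalamus and habenula list (0.85), library 18 was highest for Pcdha10 (45.96), and library 19 was lowest for the choroid plexus list (-1.58). In sham libraries on the control diet, library 11 was highest for Got1l1 (14.85) and Tcf7l2 (1123), and library 9 for Dcx (347.3). No gene named in the text had an adjusted interaction p below 0.05.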

How the results depend on the processing

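The common ECT effect had 0 called genes in all 35 alternatives, with 225 to 657 genes at an unadjusted p below 0.05 in the other settings and 326 to 576 when 1 of the 20 libraries was left out; the smallest adjusted p of any was 0.12. The count of 225 came with a random effect for the title letter, 657 without a filter on low values, 654 with 1 surrogate variable, 632 with tissue lists as covariates and 573 without the 6 thalamus-rich libraries. The interaction had 0 calls in 24 alternatives. Calls within a diet moved: on the control diet 3 with DESeq2 and 1 with all 24 libraries in the fit, and 0 to 4 when 1 library was left out. Sox11 was called in each of these fits that made a call, and the 4 came without library 6, where Csf2rb2, Slc16a11 and Echdc2, the last chosen after its values were seen, were called too. On the PLX diet the range was 0 to 1. The alternatives within diets were chosen after seeing the data. Of 49 named genes, 44 kept their sign in every alternative that gave a value. Without the diet term Csf1r had 0.025 and P2ry12 0.15, because ECT and sham libraries are unequally spread over the diets. Without the 6 thalamus-rich libraries Tcf7l2 had -0.22, and the cause was not tested. When 1 library was left out Dcx ran from -0.098 to 0.028 (positive without library 2, 12 or 18) and Npy from -0.0077 to 0.075 (negative without library 5). The filter at 50 normalized counts removed 6 named genes. No paired analysis was possible because library numbers are unique across the groups and the title letter is nested within them.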
